A study of Homo sapiens with 5 samples.

Results

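RNA polymerases I, II and III and the mitochondrial RNA polymerase transcribe the human genome. The genes that encode their subunits are described here by the promoter peaks of 3 transcription factors (TFs), Fra-1, E2F1 and MYC, in LM2 cells, which were derived from MDA-MB-231 breast cancer cells and metastasize to the lung. The members were the protein-coding genes with symbols beginning POLR1, POLR2 or POLR3, together with POLRMT, and genes annotated as readthrough were left out. There were 34 such genes among 19451 protein-coding genes on chromosomes 1 to 22 and X, with 8 named for polymerase I, 15 for polymerase II, 10 for polymerase III and 1 for the mitochondrial enzyme. The cells were untreated according to the labels, and 1 ChIP-Seq library was made for each factor from chromatin crosslinked with 1% formaldehyde for 15 min. An input library of the same cell line served as the background for all 3 factors. An EZH2 library belongs to the series but no peaks of it were used here, nor was the fourth TF analysed. No factor had a replicate, so no test was made, and the 95% Wilson confidence intervals given below cover counting error only.

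Polymerase I makes the precursor of the large ribosomal RNAs, polymerase II makes messenger RNAs, and polymerase III makes transfer RNAs and the small ribosomal RNA 5S. Each nuclear enzyme has a pair of large subunits that form the active site, a stalk, and smaller subunits of which some are shared between enzymes. Polymerases I and III also have accessory subunits that act in initiation. The mitochondrial polymerase is a single catalytic chain encoded in the nucleus. MYC is a basic helix-loop-helix factor that binds the E-box CACGTG and is known for its action on ribosome production, E2F1 acts on genes of the cell cycle, and Fra-1 is a subunit of AP-1.

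The Fra-1 list held 17320 peaks, the MYC list 4867 and the E2F1 list 36933, from libraries of 12931227 to 23853621 tags after removal of duplicates. The input was shallower, at 10758036 tags. A gene was counted as having a peak when a peak overlapped the promoter window, from 2 kb upstream to 2.5 kb downstream of any of its transcription start sites (TSS). The strength of a gene's peak is the deposited fold enrichment of its strongest promoter peak, which is the fragment pileup at the summit over the local background, and it is only roughly comparable between factors.

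MYC promoter peaks lay at 19 of the 34 RNA polymerase genes (55.9%, 95% confidence interval 39.5 to 71.1%), against 17.7% of 19417 other protein-coding genes. E2F1 promoter peaks lay at 32 members (94.1%, 80.9 to 98.4%), against 61.2% of the other genes. Fra-1 promoter peaks lay at 7 members (20.6%, 10.3 to 36.8%), and the share of the other genes, 13.4%, falls inside this interval. All 3 factors had promoter peaks at 6 members (17.6%, 8.35 to 33.5%), against 4.69% of the other genes, and these were POLR1A, POLR1D, POLR1E, POLR1G, POLR2B and POLR2L. With each peak given only to the gene with the nearest TSS, 3 members (8.82%) and 3.91% of other genes had all 3 factors, and with equal numbers of peaks 3 members and 0.860%. Only POLR1H and POLR2J had no peak of any factor (5.88%, 1.63 to 19.1%), against 37.8% of the other genes. E2F1 promoter peaks were found at all 19 members with MYC, and at 99.7% of the 3444 other genes with MYC. Among genes with an E2F1 promoter peak, MYC was at 19 of 32 members (59.4%) and at 28.9% of 11885 other genes.

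**Figure D1:**
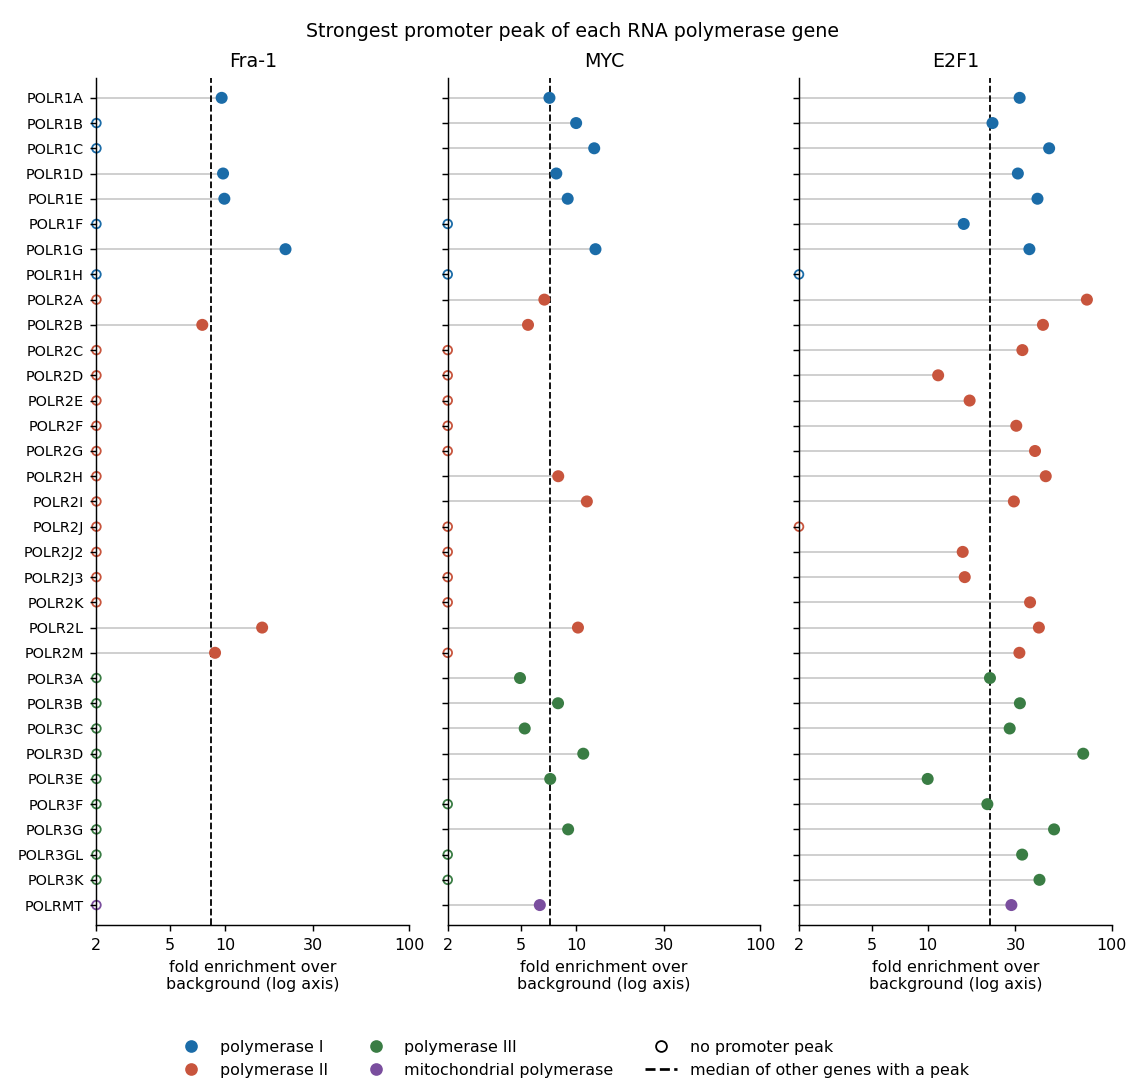
Fold enrichment of the strongest promoter peak (log axis) of Fra-1, MYC and E2F1 at 33 of the RNA polymerase genes, coloured by enzyme; open circles at the left edge mark genes without a promoter peak, and dashed lines the median of other protein-coding genes with a peak (8.38, 7.22 and 21.9 in the same order). Among the genes drawn, E2F1 is present at 31, MYC at 18 and Fra-1 at 7, none of the latter named for polymerase III.

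By enzyme, MYC was at 6 of 8 polymerase I genes (75.0%, 40.9 to 92.9%), 5 of 15 polymerase II genes (33.3%, 15.2 to 58.3%) and 7 of 10 polymerase III genes (70.0%, 39.7 to 89.2%). The intervals of the 3 enzymes overlap, and the lower bound for polymerase II is below the 17.7% of other genes. For 3 of the polymerase II genes, POLR2J, POLR2J2 and POLR2J3, most of the window is repeated sequence. None of the 3 had MYC, so leaving them out could only raise the share, to 5 of 12 (41.7%, 19.3 to 68.0%). Other genes with repeated windows stayed in the 17.7%, so this interval is not compared with it. When the subunits that the enzymes share were counted in each enzyme, MYC was at 8 of 13 polymerase I genes, 5 of 15 polymerase II genes and 11 of 17 polymerase III genes. Fra-1 was at 4 of the 8 polymerase I genes (50%, 21.5 to 78.5%) and at 3 of the 15 polymerase II genes (20%, 7.05 to 45.2%). The share of other genes was 13.4%. Of the polymerase I genes, POLR1A lost Fra-1 with a single canonical TSS, and POLR1G with peaks given to the nearest TSS. With equal numbers of peaks, POLR1A, POLR1D and POLR1E lost it. Fra-1 was at 0 of the 10 genes named for polymerase III, which with this number of genes allows a share of up to 27.8%. E2F1 was at 7, 14 and 10 of the genes of polymerases I, II and III, and POLRMT had MYC and E2F1 peaks but no Fra-1 peak.

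**Figure D2:**
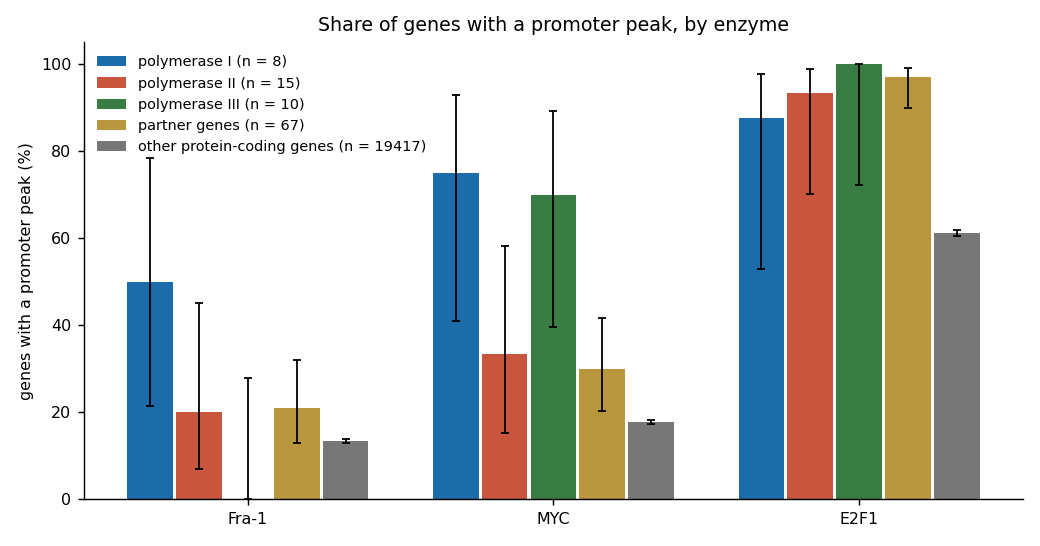
Percent of genes with a promoter peak of each factor, for the genes named for polymerase I, II and III, for 67 partner genes and for 19417 other protein-coding genes; error bars are 95% Wilson confidence intervals. MYC is at 75.0% and 70.0% of polymerase I and III genes and at 33.3% of polymerase II genes, whereas E2F1 is above 80% in each enzyme.

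All 7 genes of the catalytic chains had both a MYC and an E2F1 promoter peak. For MYC this is 100% with an interval from 64.6%, against 12 of 27 of the other subunit genes (44.4%, 27.6 to 62.7%). The MYC peaks of the catalytic genes were of moderate strength, with fold enrichments from 4.94 to 9.97 and a median of 6.70, and those of the other 12 genes ran from 5.24 to 12.7 with a median of 9.00. POLR1A and POLR1B, the large subunits of polymerase I, had MYC fold enrichments of 7.14 and 9.97, each with a pileup of 18 fragments. POLR2A, whose repeated C-terminal domain is phosphorylated during transcription, had 6.70 with a pileup of 11, and POLR2B, its partner in the active site, had 5.46 with a pileup of 9. POLR3A and POLR3B of polymerase III had 4.94 and 7.95, with pileups of 13 and 15. POLRMT had 3 MYC peaks, at fold enrichments of 6.33, 6.33 and 5.46 and pileups of 7 to 9 fragments. The weakest MYC peaks of the catalytic genes rest on few fragments, and at a −log10 q-value of at least 5 POLR2B, POLR3A and POLRMT dropped out, which left 4 of 7 catalytic and 11 of 27 other subunit genes with MYC. The catalytic genes also had long promoter windows, 13837 to 28766 bp in total. With a single canonical TSS per gene, all 7 still had a MYC promoter peak.

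The E2F1 fold enrichments of the catalytic genes ran from 21.8 to 73.3 with a median of 31.6, against a median of 21.9 in other genes with a peak. POLR2A had the largest E2F1 fold enrichment of all members, 73.3 with a pileup of 130 fragments, which placed it at percentile 99.8 of protein-coding genes with an E2F1 promoter peak. POLR2B had 42.3, POLR3B 31.7, POLR1A 31.6, POLRMT 28.5, POLR1B 22.5 and POLR3A 21.8. The E2F1 summit of POLR1A was closer to the TSS of its neighbour PTCD3. With peaks given only to the gene with the nearest TSS, POLR1A had no E2F1. Fra-1 was at POLR1A and POLR2B, with fold enrichments of 9.58 and 7.52. Both Fra-1 peaks lay far inside the genes, 41593 bp and 44390 bp downstream of the canonical TSS, and were counted because other annotated transcripts start there. The Fra-1 peak of POLR2B stood on a high local background of about 4.99 fragments, and an E2F1 peak with a fold enrichment of 5.43 overlapped it.

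The subunits shared between enzymes divided. POLR1C and POLR1D, which polymerases I and III share, both had MYC, with fold enrichments of 12.5 and 7.78. Their E2F1 fold enrichments were 45.7 and 30.9. At POLR1C the MYC summit lay 31 bp from the canonical TSS and 16 bp from the E2F1 summit. POLR1D had 3 E2F1 peaks and 2 MYC peaks along its several start sites, with the stronger MYC summit 2 bp from one of them. Of the 5 subunits common to all 3 nuclear enzymes, POLR2H and POLR2L had MYC, at 7.97 and 10.2, with E2F1 at 43.8 and 40.2, and POLR2E, POLR2F and POLR2K had only E2F1, at 16.9, 30.3 and 36.0. The MYC peaks of POLR2L lay 1576 and 1809 bp upstream of its TSS, and the TSS of its neighbour TSPAN4, which encodes a tetraspanin, was closer to both. The Fra-1 peak of POLR2L, at 15.9, was also closer to TSPAN4. When a peak was given only to the gene with the nearest TSS, POLR2L kept E2F1 alone.

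The accessory subunits of polymerase I include the gene with the strongest MYC and Fra-1 peaks among the members. POLR1E and POLR1G form the TFIIF-like dimer of polymerase I, and both had peaks of all 3 factors. POLR1G had the largest MYC fold enrichment, 12.7, and the largest Fra-1 fold enrichment, 21.3 with a pileup of 32 fragments. These summits lay 705 and 888 bp upstream of POLR1G, closer to the TSS of PPP1R13L, a gene on the other strand. A second MYC peak, with a fold enrichment of 10.4, had its summit 6 bp upstream of the POLR1G TSS. At POLR1E, a gene with no other protein-coding promoter at its peaks, Fra-1 had a fold enrichment of 9.91, MYC of 8.97 and E2F1 of 39.5. The Fra-1 summit lay 50 bp upstream of the TSS.

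Polymerase III has a dimer of the same kind, POLR3D and POLR3E, and a trimer that opens the promoter, made of POLR3C, POLR3F and either POLR3G or POLR3GL. POLR3D had MYC at 10.9 and E2F1 at 70.0, the second largest E2F1 fold enrichment among the members. POLR3E had MYC at 7.21 and the lowest E2F1 fold enrichment, 10.0. POLR3C had MYC at 5.24 and E2F1 at 27.9, and POLR3F had E2F1 alone, at 21.1. The paralogues POLR3G and POLR3GL take the same place in the trimer, and POLR3G is known from proliferating and stem cells. POLR3G had MYC at 9.02 with a pileup of 18 fragments and E2F1 at 48.6, whereas POLR3GL had E2F1 at 32.6 and no MYC peak. Both E2F1 summits were closer to the TSS of a neighbour, MBLAC2 and ANKRD34A, and the MYC summit of POLR3G lay 19 bp from a TSS of POLR3G itself. POLR2M, or Gdown1, which associates with polymerase II, had Fra-1 at 8.82 and E2F1 at 31.5, and was the only member with Fra-1 and no MYC.

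The zinc ribbon subunits, the assembly platform of polymerase II and the stalk genes POLR1F, POLR2D and POLR2G had few MYC peaks. These stalk genes had only E2F1, at 15.7, 11.4 and 38.3. The value of POLR2D was, after that of POLR3E, among the weakest E2F1 peaks of the members. Of the 3 zinc ribbon genes, POLR2I had MYC at 11.4 and E2F1 at 29.4, POLR3K had E2F1 alone at 40.5, and POLR1H had none. None of the 4 platform genes had MYC, with an interval of up to 49%. This bound rests on 4 genes, and the windows of POLR2J, POLR2J2 and POLR2J3 are mostly repeated sequence. Whether MYC peaks were missed for this reason was not tested, and E2F1 peaks were called at POLR2J2 and POLR2J3. POLR2C had E2F1 at 32.7, and the near-identical POLR2J2 and POLR2J3 had E2F1 at 15.5 and 15.9.

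For both members without any peak, the lists limit what can be said. In the reference, only 17.9%, 9.70% and 8.21% of the 49-base words in the windows of POLR2J, POLR2J2 and POLR2J3 occurred once in the genome, against 84.9% to 99.8% in the other members, and the authors kept only uniquely mapping reads. The values of these 3 genes are therefore uncertain. Without them MYC was at 19 of 31 members (61.3%) and E2F1 at 30 of 31, while other genes with repeated windows were kept. POLR1H, whose window was 99.7% unique by the same count, lies on chromosome 6 between 29 and 33 Mb. There the Fra-1, MYC and E2F1 lists held 0, 0 and 0 peaks, against 1106, 193 and 1961 on all of chromosome 6. In that stretch 0 of 145 protein-coding genes had an E2F1 promoter peak, against 552 of 864 (63.9%) on the rest of the chromosome. The E2F1 list also held 18 peaks on alternative haplotype sequences of chromosome 6. Why the stretch held no peaks was not tested. Whether POLR1H was bound cannot be told from these lists. Without it MYC was at 6 of 7 polymerase I genes, a share that could only rise because POLR1H had no MYC. The other genes of the stretch were kept in the shares of other genes.

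**Figure D3:**
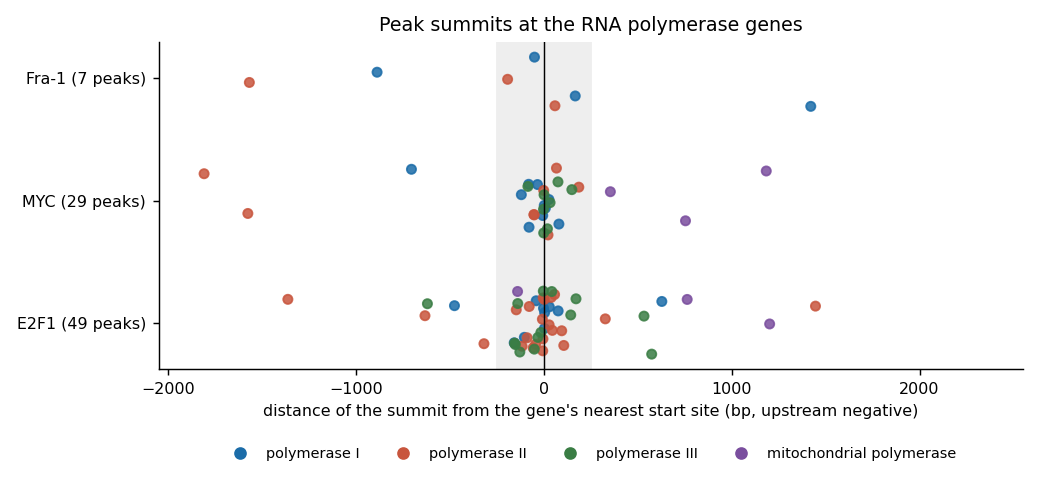
Distance in bp from each peak summit to the nearest start site of the RNA polymerase gene whose window it overlapped (upstream negative), for 7 Fra-1, 29 MYC and 49 E2F1 peaks, coloured by enzyme; the shaded band is 250 bp either side and the vertical scatter has no meaning. Within the band lie 4 Fra-1, 23 MYC and 37 E2F1 summits.

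Most MYC peaks lay close to the start sites. The 19 genes had 29 MYC peaks with a median width of 239 bp, against 175 bp for the MYC promoter peaks of other genes. Of the 29, 23 had their summit within 250 bp of a TSS of the gene and 26 within 1 kb, and the median distance was 67 bp. These distances are given for members only and depend on the number of annotated start sites. That number had a median of 7.5 in members and 5.0 in other genes. All 29 overlapped an E2F1 peak, as did 97.7% of 3874 MYC promoter peaks of other genes. The 32 genes with E2F1 had 49 peaks with a median width of 641 bp, of which 37 summits lay within 250 bp. Of the 7 Fra-1 peaks, 4 summits lay within 250 bp, 6 overlapped an E2F1 peak and 3 overlapped a MYC peak. The 3 MYC peaks of POLRMT, by contrast, lay downstream of its start site, with summits 354, 754 and 1184 bp inside the gene, all in introns. Of the 29 MYC peaks, 17 also overlapped the window of another protein-coding gene, a count likewise given for members only. For 3 of them, at POLR1G and POLR2L, another gene had the closer TSS. Giving peaks only to the nearest gene left 18 members with MYC, against 15.0% of the other genes. It left 28 members with E2F1 (82.4%), against 56.8% of the other genes.

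The sequences under the MYC summits that hold the E-box CACGTG within 50 bp are printed because they place the canonical MYC motif at the start of these genes. They were read from GRCh37 (hg19) on the strand of the gene, with the E-box in capitals. The POLR1B sequence is chr2:113300183-113300212 on the plus strand, and its E-box lay 24 bp from the MYC summit. POLR1G is chr19:45909878-45909907, plus strand, 4 bp from the summit of the peak at its own TSS. POLR2I is chr19:36605860-36605889, minus strand, 14 bp from the summit. POLR3A is chr10:79789291-79789320, minus strand, at 34 bp, and POLR3E is chr16:22308717-22308746, plus strand, at 38 bp. The E-boxes of POLR3A and POLR3E run past the end of the called peak. They are therefore not among the E-boxes counted inside peaks below. POLR3D also had an E-box 34 bp from its summit and its sequence is not printed.
POLR1B: ctgacgcgggcgCACGTGgagtccttcaac
POLR1G: cccctttggatcCACGTGgtctgcaacctg
POLR2I: gcggggagccagCACGTGtgcgcagctccg
POLR3A: agaggaagcggaCACGTGggacactctacg
POLR3E: cccgctccccccCACGTGtccgccggagtt

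These 6 peaks are 20.7% of the 29 MYC peaks of members (9.85 to 38.4%), and 16.2% of 3874 MYC promoter peaks of other genes held an E-box at this distance. The intervals of peak shares treat peaks as independent, although the 29 came from 19 genes, and may be too narrow. The variant CACGCG lay within 50 bp of 7 member summits (24.1%, 12.2 to 42.1%), against 11.8% of the others. Without regard to peaks, the variant lay within 50 bp of the canonical TSS of 7 of 34 members (20.6%, 10.3 to 36.8%). For other genes this share was 5.91%, so the higher share in members was not particular to MYC summits. Anywhere inside the MYC peaks, 8 of 29 member peaks (27.6%, 14.7 to 45.7%) held an E-box, against 24.0% of the others, which were narrower. One further example is POLR3G, because its paralogue POLR3GL had no MYC. Its E-box, at chr5:89769846-89769875 on the plus strand, lay inside the 1360-bp MYC peak and 16 bp upstream of an annotated TSS, though 870 bp from the summit.
POLR3G: gtggtcgaagtgCACGTGggtggccacggc

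The E-box was also counted in the promoter sequence without regard to peaks, within 500 bp of the canonical TSS. It was found at 14 of 34 members (41.2%), against 18.2% of 19138 other genes with a canonical TSS. Of the 19 members with a MYC promoter peak, 12 had such an E-box (63.2%, 41.0 to 80.9%), and of the 15 without MYC, 2 did (13.3%, 3.74 to 37.9%), POLR2F and POLR3K. Among other genes the shares were 32.3% with MYC and 15.2% without. Seen from the sequence, MYC was at 12 of the 14 members with an E-box (85.7%, 60.1 to 96.0%) and at 31.7% of other genes with one. It was at 7 of the 20 members without an E-box (35.0%, 18.1 to 56.7%) and at 14.9% of other such genes. Those 7 were POLR1A, POLR1C, POLR2A, POLR2B, POLR2L, POLR3B and POLRMT, which include 5 of the 7 catalytic genes. POLR2L and POLRMT did have an E-box inside a MYC peak, 82 and 78 bp from the summit. It lay more than 500 bp from the canonical TSS and so was not counted here. The base composition of the promoters was similar, with a median of 60.7% G and C in members and 61.4% in other genes.

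**Figure D4:**
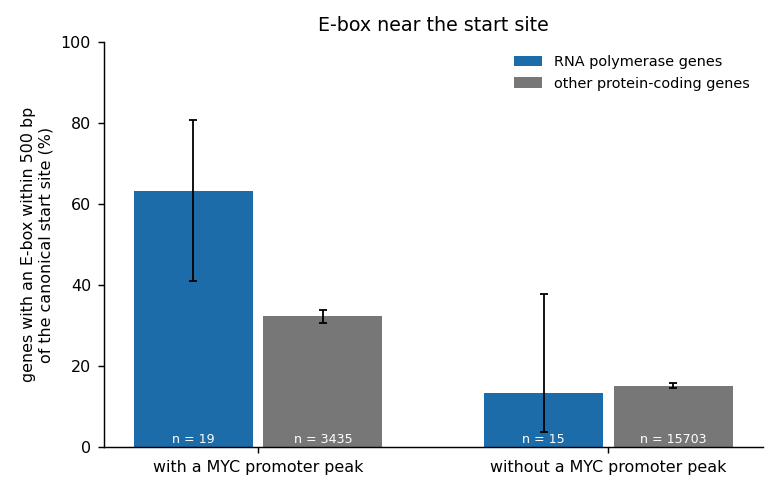
Percent of genes with the E-box within 500 bp of the canonical start site, for RNA polymerase genes and other protein-coding genes, with and without a MYC promoter peak; error bars are 95% Wilson confidence intervals and n is the number of genes. The share is 63.2% in members with MYC and 13.3% in those without, and 32.3% and 15.2% in other genes.

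The AP-1 motif, TGACTCA or TGAGTCA, lay within 50 bp of 1 of the 7 Fra-1 summits of members (14.3%, 2.57 to 51.3%), against 49.7% of 3141 Fra-1 promoter peaks of other genes. It was at POLR1D, 44 bp from the summit, at chr13:28195527-28195555 on the plus strand, and is shown because it is the single AP-1 match at a Fra-1 summit, with the motif in capitals and an E-box at its right end.
POLR1D: gtattctgtggTGACTCAtctcgcacgtg

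E2F motifs (TTTCCCGC, TTTCGCGC, TTTGCCGC and TTTGGCGC) lay within 50 bp of 1 of 49 E2F1 summits of members (2.04%, 0.361 to 10.7%), at POLR1G, and at 2.19% of the E2F1 promoter peaks of other genes. All motifs were searched on both strands. A match is a description of the letters in the window, and a window without one says nothing of binding.

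**Figure D5:**
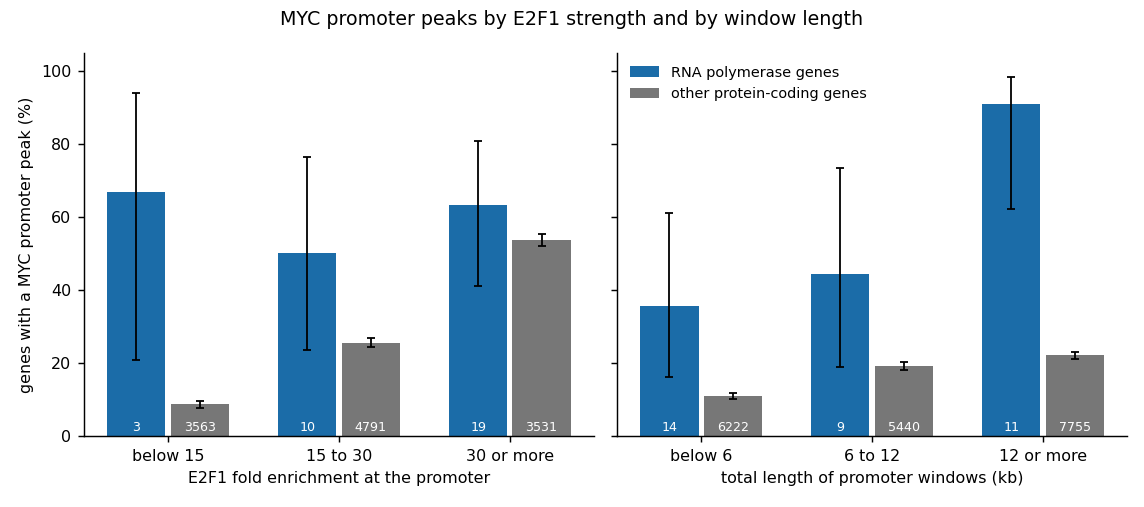
Percent of genes with a MYC promoter peak among RNA polymerase genes and other protein-coding genes, grouped by E2F1 fold enrichment (left) and by the total length of their promoter windows (right); error bars are 95% Wilson confidence intervals and the numbers in the bars are genes. The bars of members are above those of other genes in each group, and their intervals exclude the share of other genes in the weakest E2F1 group and in the shortest and longest window groups.

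Among other genes MYC was more frequent where E2F1 was strong, and the RNA polymerase genes had stronger E2F1 peaks than other genes, with a median fold enrichment of 31.6 (10.0 to 73.3) against 21.9. MYC was therefore compared at like E2F1 strength. At an E2F1 fold enrichment of 30 or more, MYC was at 12 of 19 members (63.2%, 41.0 to 80.9%) and at 53.8% of 3531 other genes, a share inside the interval of the members. From 15 to 30 it was at 5 of 10 members (50%, 23.7 to 76.3%) and at 25.6% of other genes, and below 15 at 2 of 3 members, among them POLR3E, and at 8.67% of other genes. The share of other genes lay inside the interval of the members in both groups with E2F1 of 15 or more, which hold 29 of the 32 members, so a difference at like E2F1 strength was not detectable there with these numbers. Within the members, the median E2F1 fold enrichment was 31.7 in the 19 genes with MYC (quartiles 28.2 and 43.1) and 30.3 in the 13 without (quartiles 15.9 and 32.7). In other genes the medians were 32.1 with MYC and 18.4 without. The MYC peaks of members were themselves close in strength to those of other genes, with medians of 7.95 and 7.22. The Fra-1 medians were 9.75 and 8.38.

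A gene with many start sites has a longer window in which a peak can fall. The members had a median window of 7606 bp, against 9363 bp in other genes, although their median number of start sites was higher, 7.5 against 5.0. For windows below 6000 bp, MYC was at 5 of 14 members (35.7%, 16.3 to 61.2%) and 11.0% of other genes. From 6000 to 12000 bp it was at 4 of 9 members (44.4%, 18.9 to 73.3%) and 19.2%. For longer windows it was at 10 of 11 members (90.9%, 62.3 to 98.4%) and 22.1%, the exception being POLR2F.

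Partners of the polymerases were taken as 67 genes, mostly for initiation factors, elongation factors and assembly chaperones. The polymerase I list also held TTF1 and CAVIN1, which act in termination and release. The polymerase III list held CRCP, itself a polymerase III subunit gene, whose symbol is outside the rule for members. CRCP had Fra-1 at 12.3, MYC at 6.99 and E2F1 at 36.8. Of the 67 partners, MYC was at 20 (29.9%, 20.2 to 41.7%), E2F1 at 65 (97.0%, 89.8 to 99.2%) and Fra-1 at 14 (20.9%, 12.9 to 32.1%). Among other protein-coding genes these shares were 17.7%, 61.2% and 13.4%. The Fra-1 interval of the partners holds the share of other genes, and their MYC share was close to the 28.9% of other genes with an E2F1 promoter peak. The MYC share of the partners was thus lower than the 55.9% of the subunit genes, and the intervals overlap. MYC was at 2 of 9 genes of the polymerase I list, TAF1D of the selectivity factor SL1 at 11.5 and TCOF1, mutated in Treacher Collins syndrome, at 6.14. It was at 5 of 23 genes of polymerase II initiation and elongation, with the largest values at GTF2H3 of TFIIH, 11.7, and GTF2A1 of TFIIA, 9.08. It was at 6 of 18 genes of the polymerase III list, CRCP included, led by GTF3C4 of TFIIIC, 13.6, and GTF3A, the 5S gene factor TFIIIA, 10.9. Of the 12 assembly genes 5 had MYC, with RUVBL1, an ATPase of the R2TP chaperone complex, at 9.65 and GPN3, a GTPase, at 9.15. Of 5 mitochondrial genes, TFB2M and TEFM, which act with POLRMT in initiation and elongation, had MYC at 5.60 and 4.78, and TFAM, TFB1M and MTERF1 had none. Thus for polymerase I, MYC was at 6 of 8 subunit genes and at 2 of 9 genes of the partner list (22.2%, 6.32 to 54.7%), with overlapping intervals. The partners without any peak were GTF2H2 and GTF2H4, of which GTF2H4 lies in the same stretch of chromosome 6 as POLR1H.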

How the data were processed

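Reads were trimmed with Trimmomatic, aligned by the authors with Bowtie to a masked hg19 genome keeping uniquely mapping reads, and stripped of duplicates. The authors called peaks with MACS2 (2.0.10.20120913, q-value below 0.01), per library and with the same input as control. The authors deposited for each peak the pileup signal at its summit, the fold enrichment (a ratio to the background nearby) and the p- and q-values as −log10. Samples were grouped by antibody, with no replicates.

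Genes and start sites were taken from GENCODE 44 mapped to GRCh37. A peak was counted from 1 bp of overlap with a promoter window. Members, subunit roles, partner lists and named genes were chosen with earlier results of these data known. One member is counted throughout but is not reported here by name. Otherwise the text names each member with a MYC or Fra-1 peak or without any peak, the 3 largest and 3 smallest E2F1 values, catalytic subunits, paralogues, the roles of the others, and the 2 partners per list with the largest MYC value. Unique 49-base words were counted on the primary assembly. Shares have 95% Wilson intervals, which for shares of peaks treat several peaks of 1 gene as independent. Overlap, strand and word counts were tested on simulated data, with 4 of 4 tests passed. Alternatives were stricter thresholds, equal peak numbers, other windows or start sites, summits, and omission of genes. Protein sequences were not used here. The work used matplotlib 3.10.9, numba 0.67.0, pandas 2.3.3, numpy 2.4.6, scipy 1.17.1 and Python 3.11.15.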

Additional observations from a re-analysis of the deposited data

Results flagged for a closer look

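Peaks inside the RNA polymerase genes but outside the promoter windows entered none of the comparisons above. Fra-1 had 5 such peaks, in POLR1A, POLR2B, POLR2F and POLR3A, and the strongest, in POLR2F, had a fold enrichment of 12.8 although POLR2F had no Fra-1 promoter peak. E2F1 had 6 such peaks, in POLR2F, POLR2L and POLR3GL, with fold enrichments of up to 17.5 in POLR2L. MYC had 1, in POLR2L, at 6.66. All of these passed the peak caller's threshold against the input.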

How the results depend on the processing

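Of 126 values computed under 14 alternatives, 122 stayed close to the reported value, meaning within 1.5 times for counts and within the 95% interval for shares and medians, and 0 changed direction against other genes. The other 4 moved. A −log10 q-value of at least 5 left 4 catalytic genes with MYC in place of 7. Equal numbers of peaks per factor left 3 members with Fra-1 and 3 with all 3 factors, since fewer Fra-1 and E2F1 peaks were kept. Assigning peaks to the nearest TSS, which was chosen after seeing the data, left 3 members with all 3 factors (POLR1A, POLR1G and POLR2L lost 1 or more). Leaving out POLR1H was also chosen after seeing the data. The 122 include values that could not move. Equal peak numbers meant the 4867 of the MYC list, so MYC peaks did not change. Leaving out POLR1H or POLR2J, POLR2J2 and POLR2J3 could not alter catalytic counts. The limits were also wide. With equal peak numbers E2F1 fell from 32 to 23 members (94.1% to 67.6%), against 25.4% of other genes, and counted as close. So did MYC falling from 7 to 5 of 10 polymerase III genes at a −log10 q-value of at least 5. MYC was at 15 to 19 members under every alternative. No paired analysis was possible because each factor had 1 library. The MYC peaks of members rest on 7 to 23 fragments at their summits, although the MYC library kept the most tags of the 3 factors. Weaker binding may have gone uncalled, and this was not tested.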
